A study of Mus musculus with 27 samples.

Results

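Microglia of germ-free (GF) mice were compared 3 days after intracerebral hemorrhage (ICH) with microglia of GF mice after sham surgery. The comparison rests on 6 of the 27 RNA-seq libraries of the study, chosen by their labels: 3 labelled germ free, collagenase and day 3 (GF ICH day 3), and 3 labelled germ free, PBS and day 7 (GF sham). GF mice are raised without microbes. Collagenase injected into the brain breaks down vessel walls and causes bleeding, and PBS is the buffered saline of the sham injection. All 6 libraries are from wild-type mice and from microglia sorted out of brain tissue around the hematoma or the injection site. The sham libraries are labelled day 7, so the injury and the day cannot be told apart. The sorting gate, the age of the mice and whether a library is 1 mouse or a pool are not given in the sources used here. The p-values therefore measure the spread between libraries within groups, which may be technical, with an estimate shared over all 27 libraries. The same comparison in specific pathogen-free (SPF) mice and in mice given an antibiotic cocktail (ABX), with 3 libraries a side, is given to show where GF mice differ. The SPF and ABX libraries also enter the fits behind the GF calls, through the shared estimate of the spread, the scaling and the gene filters.

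Microglia are the resident macrophages of the brain. After a hemorrhage they take up red cells, break down heme with heme oxygenase, store the freed iron in ferritin, and can leave a surveying state, marked by purinergic receptors and Tmem119, for an activated state that resembles microglia around amyloid plaques. Gut microbes are known to affect the maturation of microglia, and the short-chain fatty acids that gut bacteria make are among the signals studied for this.

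The 6 libraries hold 41664864 to 70358974 counts each. Genes with at least 1 count numbered 15411 to 16931 in GF ICH day 3, while GF sham had 10325 in replicate 1, 11925 in replicate 2 and 18408 in replicate 3. GF sham replicates 1 and 2 stand apart from the other 4 libraries. Across genes, the Spearman correlation was 0.658 to 0.729 among the 3 sham libraries and 0.875 to 0.918 among the 3 ICH libraries. Sham replicate 3 correlated at 0.837 to 0.904 with the ICH libraries. Mitochondrial transcripts made up 0.878% to 0.955% of counts in GF ICH day 3 and 1.17% to 1.48% in GF sham, and the part of this difference in the results was not tested. Microglial genes were abundant in every library, as the label states. C1qb, a chain of complement C1q, had 20120, 11640 and 18920 CPM in GF ICH day 3 and 12130, 11450 and 22220 CPM in GF sham, where CPM is counts per 1000000 counts of the library. The groups overlapped.

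Of 17573 genes tested together with edgeR, 1 passed an adjusted p of 0.05. It was Spp1 (GRCm38, chromosome 5, 104435118 to 104441050), which encodes the secreted phosphoprotein osteopontin. Spp1 had 1585, 7648 and 3506 CPM in GF ICH day 3, against 78.9, 115 and 47.4 CPM in GF sham. The lowest ICH library, replicate 1, stood far above the highest sham library. Spp1 rose by 5.22 ± 0.65 on the log2 scale (SE, n = 3 libraries a side, edgeR adjusted p = 0.000551). This single call is 0.00569% of the genes tested, and 0% were called lower. Without adjustment 929 genes (5.29%) had an edgeR p under 0.05, of which 407 were higher (2.32%) and 522 lower (2.97%). DESeq2 called 379 genes higher (2.27%) and 404 lower (2.42%), and limma voom with quality weights called 0 in each direction. The Spp1 call was lost with limma voom (adjusted p = 0.9), with the 6 libraries fitted alone (edgeR adjusted p = 0.129) and without the libraries under 12000 detected genes, which leaves replicate 3 as the only GF sham (edgeR adjusted p = 0.508).

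The promoter of Spp1 is printed because this gene passed over all genes, beside that of Ftl1, a ferritin gene that passed among abundant genes below. Each is the 250 bases before the start in RefSeq (GRCm38.p6), 5′ to 3′ on the strand of the gene. Spp1 is at chr5:104434861-104435110 on the plus strand and Ftl1 at chr7:45459887-45460136 on the minus strand. Capitals mark letters that match a searched motif.
Spp1: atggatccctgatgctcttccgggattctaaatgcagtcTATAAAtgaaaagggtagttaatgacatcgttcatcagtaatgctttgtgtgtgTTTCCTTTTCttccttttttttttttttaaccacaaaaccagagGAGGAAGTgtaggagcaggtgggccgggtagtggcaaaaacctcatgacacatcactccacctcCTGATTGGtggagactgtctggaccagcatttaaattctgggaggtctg
Ftl1: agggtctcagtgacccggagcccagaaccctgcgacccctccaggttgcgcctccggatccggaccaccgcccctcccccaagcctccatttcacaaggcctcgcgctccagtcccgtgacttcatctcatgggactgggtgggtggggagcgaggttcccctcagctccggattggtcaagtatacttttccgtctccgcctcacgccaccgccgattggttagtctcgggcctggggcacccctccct
The motifs, searched on both strands, were GAGGAAGT for PU.1, TGANTCA for AP-1, GAAA, any 2 bases and GAAA again for an interferon-stimulated response element, TATAAA for a TATA box and CTGATTGG for a Y box. None of the 5 is in the Ftl1 window. The Spp1 window holds the PU.1 letters at -113 to -106 from the start and the interferon element on the minus strand at -157 to -148. It also holds the TATA box at -211 to -206 and the Y box at -49 to -42. Of 32851 promoter windows of the same length, 2.44% hold the PU.1 letters, 6.75% the AP-1 letters, 2.98% the interferon element, 12.4% the TATA box and 3.83% the Y box. A match is a description of letters and not of a bound site.

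An alternative fit ran the same test on the 1570 genes with a mean of at least 100 CPM over the 27 libraries, called the abundant-gene fit here. Its use to name genes was chosen after the values were seen. A gene can reach that mean through the groups in which it is high. In this fit 21 genes rose (1.34% of the 1570) and 3 fell (0.191%). Among those that rose, Ccl12, Fxyd5, H2-Eb1, Hmox1, Ifitm2, Ifitm3, Lgals3, Lilrb4a and Msr1 were under 100 CPM in every GF sham library. These genes reached the mean through other libraries, so their place in this fit is not independent of where they are high. The ICH and sham libraries did not overlap for any of the 24. The calls were made on these same libraries, so the lack of overlap describes the called genes and is not separate support. Of the 1570 genes, 12.7% were higher and 7.71% lower without overlap. Of the 24, 16 were also DESeq2 calls over all genes, and 1, Spp1, was an edgeR call over all genes, where the other 23 had adjusted p-values up to 0.797. The abundant-gene fit places the median log2 fold change of its genes at -0.07, and the scaling over all genes places it at -0.40, so fold changes from the 2 fits differ by about that shift. Leaving out each of the 6 libraries in turn kept 7 of the 24 calls in all 6 fits: Spp1, Ftl1, Fth1, Ftl1-ps1, Ftl2-ps, Ldha and Fxyd5. Of the other 17, Ctsb and Lilrb4a held in 5 fits and Lgals3 in 4, and Ccl12, Gm47428, H2-Eb1 and Lyz2 held in 3. H2-Ab1, Ifitm2, Ifitm3, March1, Msr1, Selenop and Serinc3 held in 2 fits, Cd63 and Hmox1 in 1 and Actb in 0. Leaving out 1 library moved the fold change of 10 of the 24 by over 1.5 times, and those values stand beside each gene below. For Spp1 the log2 fold change in this fit was 5.61, and 4.98 without GF ICH day 3 replicate 2 and 6.43 with replicate 3 as the only GF sham. Without the libraries under 12000 detected genes 5 of the 24 calls held: Spp1, Hmox1, Ftl1-ps1, Ftl2-ps and Gm47428. With the 6 libraries fitted alone, edgeR called 0 of the abundant genes in either direction. With the scaling over all genes in the abundant-gene fit, the calls of Actb, Ccl12, Cd63, Ctsb, Fth1, Gm47428, Hmox1, Lyz2 and Selenop were lost.

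**Figure D1:**
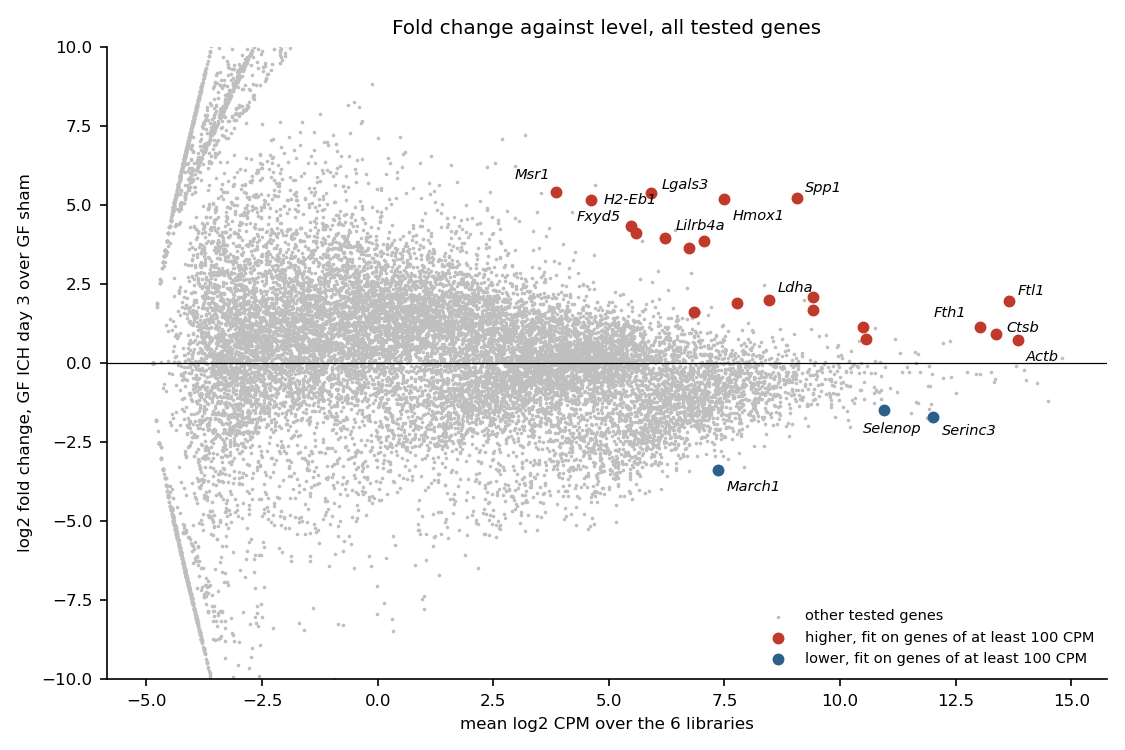
Log2 fold change of GF ICH day 3 over GF sham in the edgeR fit over all genes (y axis) against the mean log2 CPM of the 6 libraries (x axis). Each point is 1 of 17573 tested genes, 94 of which lie outside the plotted range of 10 in either direction, and the coloured points are the 21 higher and 3 lower genes of the abundant-gene fit.

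Ferritin genes and the heme-degrading enzyme were among the genes that rose. Ftl1, the light chain of ferritin (chromosome 7, 45457944 to 45459884), had 27280, 31430 and 29830 CPM in GF ICH day 3, against 4690, 3409 and 9101 CPM in GF sham. All 3 ICH libraries were close to each other, and sham replicate 3 was the highest of its group. Ftl1 rose by 2.29 ± 0.38 on the log2 scale (SE, abundant-gene fit, edgeR adjusted p = 0.00207). The log2 fold change was 1.69 with replicate 3 as the only GF sham. Fth1, the heavy chain that oxidises iron for storage (chromosome 19, 9980598 to 9985098), had 11390, 17980 and 13920 CPM in GF ICH day 3, against 5002, 3386 and 5389 CPM in GF sham. Every ICH library was above every sham library, and Fth1 rose by 1.55 ± 0.26 (abundant-gene fit, edgeR adjusted p = 0.00207). With the scaling over all genes in that fit, the log2 fold change of Fth1 was 1.13 and did not pass (edgeR adjusted p = 0.114). Hmox1, the inducible heme oxygenase that opens the heme ring (chromosome 8, 75093621 to 75100589), had 870.3, 2293 and 1190 CPM in GF ICH day 3, against 4.75, 72.6 and 32.6 CPM in GF sham. Sham replicate 1, a library with few detected genes, was the lowest. Hmox1 rose by 5.26 ± 1.31 (abundant-gene fit, edgeR adjusted p = 0.0445), and the log2 fold change was 6.19 without GF sham replicate 2. This call held in 1 of 6 fits with a library left out, where the highest adjusted p was 0.174.

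Ftl1-ps1 and Ftl2-ps, annotated copies of the light chain, rose with Ftl1 in the abundant-gene fit. Ftl1-ps1 had 1227, 1910 and 1564 CPM in GF ICH day 3, against 169, 374 and 349.6 CPM in GF sham, and Ftl2-ps had 1043, 1608 and 1444 CPM in GF ICH day 3, against 265, 314 and 384 CPM in GF sham. Their reads cannot be told apart from those of Ftl1 where the copies are near-identical, so these are not separate evidence. Gm47428, annotated antisense to Ftl1-ps1 and overlapping it, had 324, 645 and 470 CPM in GF ICH day 3, against 65, 157 and 86.8 CPM in GF sham, and passed as well (edgeR adjusted p = 0.0341). The sources used here do not state whether counting used strand, so reads of this pair cannot be told apart.

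Over the list of heme and iron genes, 7 of 23 measured members were higher in all ICH libraries than in all sham libraries, against 12.4% of all tested genes, and 0 were lower, against 2.13%. Scaled by DESeq2 size factors, 6 of 23 were higher and 0 lower, against 10.1% and 3.6% of all tested genes. In the abundant-gene fit 3 of 9 rose, the 3 genes above, against 1.34% of its 1570 genes. Slc48a1, which carries heme out of the phagolysosome, had 112, 205 and 126 CPM in GF ICH day 3, against 0.688, 0.192 and 29 CPM in GF sham. It was not in the abundant-gene fit and was a DESeq2 call (adjusted p = 0.0354) but not an edgeR call over all genes (adjusted p = 0.797). Blvrb, a biliverdin reductase, had 72.5, 90.4 and 91.2 CPM in GF ICH day 3 and 0.667, 65.7 and 67.3 CPM in GF sham, and the sham libraries other than replicate 1 were close to ICH. Slc40a1, the iron exporter ferroportin, had 152, 195 and 165 CPM in GF ICH day 3 and 311, 89.6 and 119.9 CPM in GF sham. The 2 groups overlapped for Slc40a1, as they did for 16 of the 23 members.

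**Figure D2:**
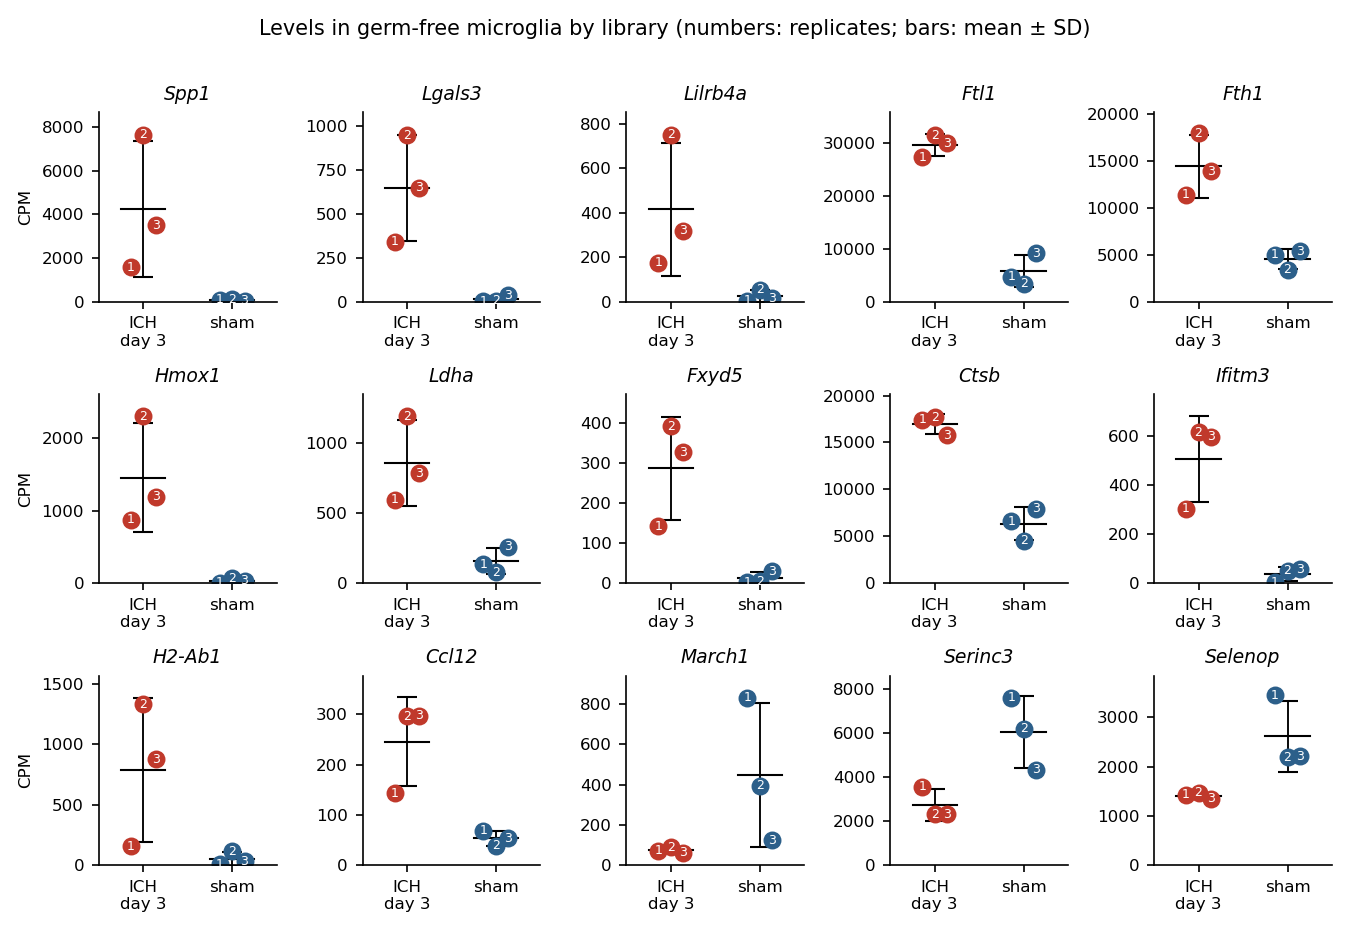
CPM of the library total (y axis, linear from 0) for 15 genes, with 1 point for each library, marked by its replicate number, and bars for the mean and SD of 3 libraries. GF ICH day 3 is left of GF sham in each panel, and the 2 groups do not overlap for any of the 15 genes, higher in ICH for the first 12 and lower for March1, Serinc3 and Selenop.

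The list of genes that mark disease-associated microglia had 15 of 22 measured members higher without overlap, against 12.4% of all tested genes, and 0 lower, against 2.13%. Of the 22, 16 are abundant genes, of which as a class 12.7% were higher. With DESeq2 size factors 11 were higher, against 10.1% of all tested genes and 5.67% of abundant genes. Against sham replicate 3 alone 16 were higher and 3 lower, where 24.4% of all tested genes were higher and 27.1% lower. Its median log2 fold change was 1.14, against 0.23 over all tested genes. In the abundant-gene fit 5 of 16 rose, against 1.34% of its 1570 genes: Spp1, Ctsb, Cd63, Lgals3 and Lilrb4a. Lgals3 and Lilrb4a reached the mean of 100 CPM through libraries other than the GF shams. Lgals3, galectin-3, a lectin of activated phagocytes (chromosome 14, 47367751 to 47386160), had 342, 949 and 649.9 CPM in GF ICH day 3, against 1.29, 3.55 and 37.4 CPM in GF sham. Sham replicate 3 was far above the other shams and still far below ICH replicate 1, the lowest of its group. Lgals3 rose by 5.46 ± 1.13 (abundant-gene fit, edgeR adjusted p = 0.0122), and the log2 fold change was 7.99 without GF sham replicate 3 and 4.08 with replicate 3 as the only GF sham. Lilrb4a, an inhibitory receptor of myeloid cells, had 175, 752 and 319 CPM in GF ICH day 3, against 3.77, 54.2 and 15.6 CPM in GF sham, and rose by 4.02 ± 0.80 (abundant-gene fit, edgeR adjusted p = 0.00843). For Lilrb4a the log2 fold change was 3.38 without GF ICH day 3 replicate 2, 5.31 without GF sham replicate 2 and 4.68 with replicate 3 as the only GF sham. Ctsb, the lysosomal protease cathepsin B, had 17400, 17680 and 15750 CPM in GF ICH day 3, against 6628, 4543 and 7929 CPM in GF sham, and rose by 1.33 ± 0.26 (abundant-gene fit, edgeR adjusted p = 0.00811). ICH replicate 1 was the lowest ICH library for Spp1, Lgals3 and Lilrb4a, but not for Ctsb.

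Other members of this list were higher without an edgeR call. Fabp5, a fatty acid carrier, had 55.3, 171 and 61.8 CPM in GF ICH day 3, against 0.896, 0.864 and 3.82 CPM in GF sham, with every sham library under 5 CPM. Gpnmb, a membrane glycoprotein of lipid-laden phagocytes, had 49.2, 173 and 78 CPM in GF ICH day 3, against 0.667, 0.36 and 2.7 CPM in GF sham. Fabp5 and Gpnmb were DESeq2 calls (adjusted p = 5.1e-09 for Fabp5 and 0.002 for Gpnmb), as was Igf1, a growth factor (adjusted p = 0.00197). Apoe, the lipid carrier, had 4422, 10790 and 9620 CPM in GF ICH day 3, against 4185, 3245 and 2970 CPM in GF sham. The ICH libraries were above the shams, replicate 1 narrowly, and the difference of 0.69 ± 0.47 did not pass (edgeR adjusted p = 0.823). Trem2 and Tyrobp, a receptor and its signalling adaptor, overlapped between the groups. Trem2 had 3356, 2094 and 2938 CPM in GF ICH day 3 and 2496, 1351 and 3518 CPM in GF sham. Lpl, lipoprotein lipase, had 212, 628 and 282 CPM in GF ICH day 3 and 557, 2.74 and 21.3 CPM in GF sham, and sham replicate 1 alone set the shams within the ICH range.

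Genes induced by interferon were higher in GF ICH day 3 in 17 of 22 measured members without overlap, against 12.4% of all tested genes, and 0 were lower. Scaled by DESeq2 size factors 15 were higher, against 10.1%, and 21 of 22 were above sham replicate 3, against 24.4%. The median log2 fold change was 2.83, against 0.23 over all tested genes. Without GF sham replicate 3 it was 4.96, against 1.34 over all genes, and with replicate 3 as the only GF sham it was 1.94, against 0.015. In the abundant-gene fit, where 1.34% of 1570 genes rose, 1 of 7 members rose. That gene was Ifitm3, a membrane protein that restricts viral entry (chromosome 7, 141009586 to 141010770), with 303, 615 and 597 CPM in GF ICH day 3, against 3.56, 51.1 and 57.9 CPM in GF sham. Its sham values differ between replicate 1 and the other shams, and none reached the lowest ICH library. Ifitm3 rose by 3.72 ± 0.94 (abundant-gene fit, edgeR adjusted p = 0.0445), and the log2 fold change was 3.11 with replicate 3 as the only GF sham. Its neighbour in the family, Ifitm2, is not in the list and had 148, 489 and 355 CPM in GF ICH day 3, against 2.63, 3.19 and 45.2 CPM in GF sham. Ifitm2 rose by 4.22 ± 1.00 (abundant-gene fit, edgeR adjusted p = 0.0339), and the log2 fold change was 6.72 without GF sham replicate 3 and 2.84 with replicate 3 as the only GF sham. Ifit1, an interferon-induced RNA-binding protein, had 15.7, 34.8 and 29.6 CPM in GF ICH day 3, against 0.333, 0.432 and 4.9 CPM in GF sham, and did not pass (edgeR adjusted p = 0.797). None of the 22 was an edgeR call over all genes. DESeq2 called 5 of the 22 higher, among them Oasl2, Ifi27l2a, Ifi204 and Zbp1, where it called 2.27% of all genes higher.

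Of the class II antigen presentation genes, H2-Ab1 and H2-Eb1 rose. H2-Ab1, the beta chain of the class II molecule I-A (chromosome 17, 34257689 to 34269419), had 154, 1332 and 876 CPM in GF ICH day 3, against 6.9, 112 and 30.4 CPM in GF sham, and rose by 3.94 ± 0.95 (abundant-gene fit, edgeR adjusted p = 0.0351). For H2-Ab1 the log2 fold change was 5.30 without GF sham replicate 2 and 4.65 with replicate 3 as the only GF sham. H2-Eb1, the beta chain of I-E, had 34.3, 375 and 240.3 CPM in GF ICH day 3, against 3.04, 1.94 and 8.81 CPM in GF sham, and rose by 5.46 ± 1.20 (abundant-gene fit, edgeR adjusted p = 0.0199). For H2-Eb1 the log2 fold change was 6.28 without GF sham replicate 3 and 4.57 with replicate 3 as the only GF sham. In both genes ICH replicate 1 was the lowest of its group and nearest the shams. H2-Aa, the alpha chain of I-A, had 48.4, 689 and 297 CPM in GF ICH day 3 and 4.92, 51.6 and 6.37 CPM in GF sham, and did not pass (edgeR adjusted p = 0.0821 in the abundant-gene fit). Cd74, the invariant chain, had 203, 1653 and 1386 CPM in GF ICH day 3, against 159, 109 and 118 CPM in GF sham, and did not pass (adjusted p = 0.0821). Over the list of antigen presentation genes 5 of 18 members were higher without overlap, against 12.4% of all tested genes, and 0 lower, against 2.13%. Scaling by DESeq2 size factors gave 4 higher and 1 lower, against 10.1% and 3.6%. In the abundant-gene fit 2 of 11 rose, against 1.34% of its 1570 genes. B2m, the light chain of class I molecules, overlapped, with 3636, 2814 and 2363 CPM in GF ICH day 3 and 2371, 2400 and 3323 CPM in GF sham. Dendritic cell markers were higher without overlap in 4 of 8 and lower in 1, against the same 12.4% and 2.13% of all tested genes. Ccr7, which guides these cells to lymph nodes, had 6.29, 76.3 and 32.5 CPM in GF ICH day 3, against 0.417, 1.13 and 1.76 CPM in GF sham. The marker sum, mostly Siglech, which microglia also express, was 1746, 1453 and 1281 CPM in GF ICH day 3 and 1976, 1996 and 1919 CPM in GF sham, and the part of these cells in the class II values was not tested.

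The promoters of Ifitm2, Ifitm3 and H2-Eb1 are printed for the interferon and class II results, in the same form and build as above. Ifitm2 is at chr7:140955962-140956211 and Ifitm3 at chr7:141010745-141010994, both on the minus strand, and H2-Eb1 is at chr17:34305617-34305866 on the plus strand.
Ifitm2: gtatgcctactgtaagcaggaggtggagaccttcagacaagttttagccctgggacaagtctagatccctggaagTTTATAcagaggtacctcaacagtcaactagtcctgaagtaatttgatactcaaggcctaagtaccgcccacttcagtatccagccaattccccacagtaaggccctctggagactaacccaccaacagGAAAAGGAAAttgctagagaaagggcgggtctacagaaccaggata
Ifitm3: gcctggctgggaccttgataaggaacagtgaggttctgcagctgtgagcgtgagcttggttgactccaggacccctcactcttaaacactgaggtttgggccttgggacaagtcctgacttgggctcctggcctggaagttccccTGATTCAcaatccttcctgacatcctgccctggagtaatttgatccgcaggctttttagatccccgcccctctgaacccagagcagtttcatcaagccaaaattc
H2-Eb1: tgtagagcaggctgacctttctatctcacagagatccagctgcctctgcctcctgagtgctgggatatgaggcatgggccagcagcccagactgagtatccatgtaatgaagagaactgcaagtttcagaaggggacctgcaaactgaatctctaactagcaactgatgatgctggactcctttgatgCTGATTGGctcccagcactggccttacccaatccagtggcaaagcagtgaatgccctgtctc
The Ifitm2 window holds the interferon element at -46 to -37 and the TATA box on the minus strand at -175 to -170. The Ifitm3 window holds the AP-1 letters at -105 to -99, and the H2-Eb1 window holds the Y box at -62 to -55. The Y box is a known element of class II promoters.

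One chemokine that draws monocytes rose. Ccl12, a ligand of Ccr2, had 143, 296 and 297 CPM in GF ICH day 3, against 68.6, 38 and 53.6 CPM in GF sham, and rose by 2.10 ± 0.47 (abundant-gene fit, edgeR adjusted p = 0.0231). Ccl2, another ligand of Ccr2, had 66.6, 196 and 111 CPM in GF ICH day 3, against 1.85, 1.54 and 7.42 CPM in GF sham, and was a DESeq2 call (adjusted p = 3.44e-06) but not an edgeR call (adjusted p = 0.164). Il1b, a pyrogenic cytokine, had 6.39, 24.6 and 19.3 CPM in GF ICH day 3, against 0.0834, 0.6 and 0.398 CPM in GF sham, and was likewise a DESeq2 call (adjusted p = 0.0163). Tnf had 7.82, 19.4 and 11.5 CPM in GF ICH day 3 and 172, 0.192 and 4.72 CPM in GF sham, and sham replicate 1 was above every ICH library. The list of cytokines and chemokines had 8 of 19 measured members higher without overlap, against 12.4% of all tested genes, and 0 lower, against 2.13%, and Il10 and Cxcl1 had 0 counts in all 6 libraries. In the list of alternative activation genes 4 of 14 were higher and 1 lower, against the same shares. Its member Msr1, a scavenger receptor, had 46.9, 199 and 122 CPM in GF ICH day 3, against 1.31, 1.1 and 4.25 CPM in GF sham, and rose by 5.69 ± 1.36 (abundant-gene fit, edgeR adjusted p = 0.0341). For Msr1 the log2 fold change was 6.53 without GF sham replicate 3 and 4.81 with replicate 3 as the only GF sham. For Ccl12, Ccl2 and Msr1 every ICH library was above every sham library, and ICH replicate 1 was the lowest of its group. Arg1, arginase 1, had 4.47, 87.2 and 31.6 CPM in GF ICH day 3, against 0.271, 0 and 0.64 CPM in GF sham, without an edgeR call (adjusted p = 0.797).

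Ldha, Fxyd5, Actb, Lyz2 and Cd63 were also among the genes that rose. Ldha, lactate dehydrogenase A, which makes lactate from pyruvate (chromosome 7, 46841475 to 46855627), had 598, 1196 and 788 CPM in GF ICH day 3, against 135, 78.3 and 263 CPM in GF sham, and rose by 2.34 ± 0.42 (abundant-gene fit, edgeR adjusted p = 0.00291). For Ldha the log2 fold change was 1.68 with replicate 3 as the only GF sham. It was the 1 of 11 members of the list of glycolysis and hypoxia genes that rose in the abundant-gene fit. Of all genes in that fit 1.34% rose. Over that list 11 of 20 were higher without overlap, against 12.4% of all tested genes and 12.7% of abundant genes. With DESeq2 size factors 6 of 20 were higher, against 10.1% and 5.67%. Pkm, pyruvate kinase, had 1415, 1506 and 1923 CPM in GF ICH day 3 and 26.5, 536 and 596 CPM in GF sham, and Eno1, enolase, had 1774, 1914 and 2149 CPM in GF ICH day 3 and 794, 782 and 1072 CPM in GF sham, neither of them a call. Fxyd5, a regulator of the sodium pump that also loosens cell contacts, had 142, 391 and 327 CPM in GF ICH day 3, against 2.17, 4.92 and 30.4 CPM in GF sham, and rose by 4.47 ± 0.85 (abundant-gene fit, edgeR adjusted p = 0.00621). For Fxyd5 the log2 fold change was 6.26 without GF sham replicate 3 and 3.21 with replicate 3 as the only GF sham. Actb, cytoplasmic actin, had 19050, 21640 and 25090 CPM in GF ICH day 3, against 10350, 7932 and 9139 CPM in GF sham, and rose by 1.18 ± 0.30 (abundant-gene fit, edgeR adjusted p = 0.0469), a call that held in 0 of 6 fits with a library left out. The list of galectins, annexins and cytoskeletal genes had 13 of 21 higher without overlap and 9 of 21 with DESeq2 size factors, against the same shares. Its median log2 fold change was 0.32, against 0.23 over all tested genes and -0.40 over abundant genes, and 12 of the 21 were positive. Anxa2, annexin A2, had 114, 412 and 218 CPM in GF ICH day 3, against 1.29, 1.87 and 9.59 CPM in GF sham, and missed the threshold (adjusted p = 0.0611). Lyz2, lysozyme, rose by 1.47 ± 0.31 (abundant-gene fit, edgeR adjusted p = 0.0124), with 1778, 3272 and 2404 CPM in GF ICH day 3, against 695, 607 and 1232 CPM in GF sham. Cd63, a tetraspanin of late endosomes, rose by 1.13 ± 0.29 (abundant-gene fit, edgeR adjusted p = 0.0469), with 1923, 2766 and 2242 CPM in GF ICH day 3, against 922, 586 and 1478 CPM in GF sham. None of these called genes had a sham library as high as its lowest ICH library.

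Of 27 measured lysosomal genes, 9 were higher without overlap and 1 lower, against 12.4% and 2.13% of all tested genes. Scaling by DESeq2 size factors gave 3 higher and 1 lower, where 10.1% of all tested genes were higher and 3.6% lower, so this count is near the background. Ctsb was the 1 of 22 members that rose in the abundant-gene fit, against 1.34% of its 1570 genes. Ctsl, cathepsin L, had 3565, 3616 and 3241 CPM in GF ICH day 3, against 1398, 1016 and 2096 CPM in GF sham, with an adjusted p of 0.0548 in that edgeR fit. Ctsd, cathepsin D, overlapped, with 40220, 25830 and 41670 CPM in GF ICH day 3 and 26770, 13340 and 26190 CPM in GF sham.

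Cell cycle genes were higher without overlap in 19 of 26 measured members, against 12.4% of all tested genes, and 0 were lower. With DESeq2 size factors 17 were higher, against 10.1%, and 25 of 26 were above sham replicate 3, against 24.4%. The median log2 fold change was 2.87, against 0.23 over all tested genes. Without GF sham replicate 3 it was 5.44, against 1.34 over all genes, and with replicate 3 as the only GF sham it was 1.64, against 0.015. None of the 26 was an edgeR call over all genes or in the abundant-gene fit, and 3 were DESeq2 calls: Mki67, Pclaf and Tk1. Over all genes DESeq2 called 2.27% higher. Mki67, a marker of dividing cells, had 15, 35.1 and 25.3 CPM in GF ICH day 3, against 0.396, 0.288 and 1.14 CPM in GF sham. Every ICH library was above every sham library. Top2a, the topoisomerase of dividing cells, had 22.6, 52.7 and 43 CPM in GF ICH day 3, against 0.229, 0.336 and 9.96 CPM in GF sham. Sham replicate 3 had more of Top2a than the other shams, but less than the lowest ICH library. Stmn1, a microtubule regulator of dividing cells, had 274, 395 and 290.1 CPM in GF ICH day 3, against 122, 146 and 227 CPM in GF sham, and did not pass (edgeR adjusted p = 0.91). Pcna, the sliding clamp of DNA replication, overlapped, with 112, 179.8 and 147 CPM in GF ICH day 3 and 224, 126 and 77.4 CPM in GF sham.

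**Figure D3:**
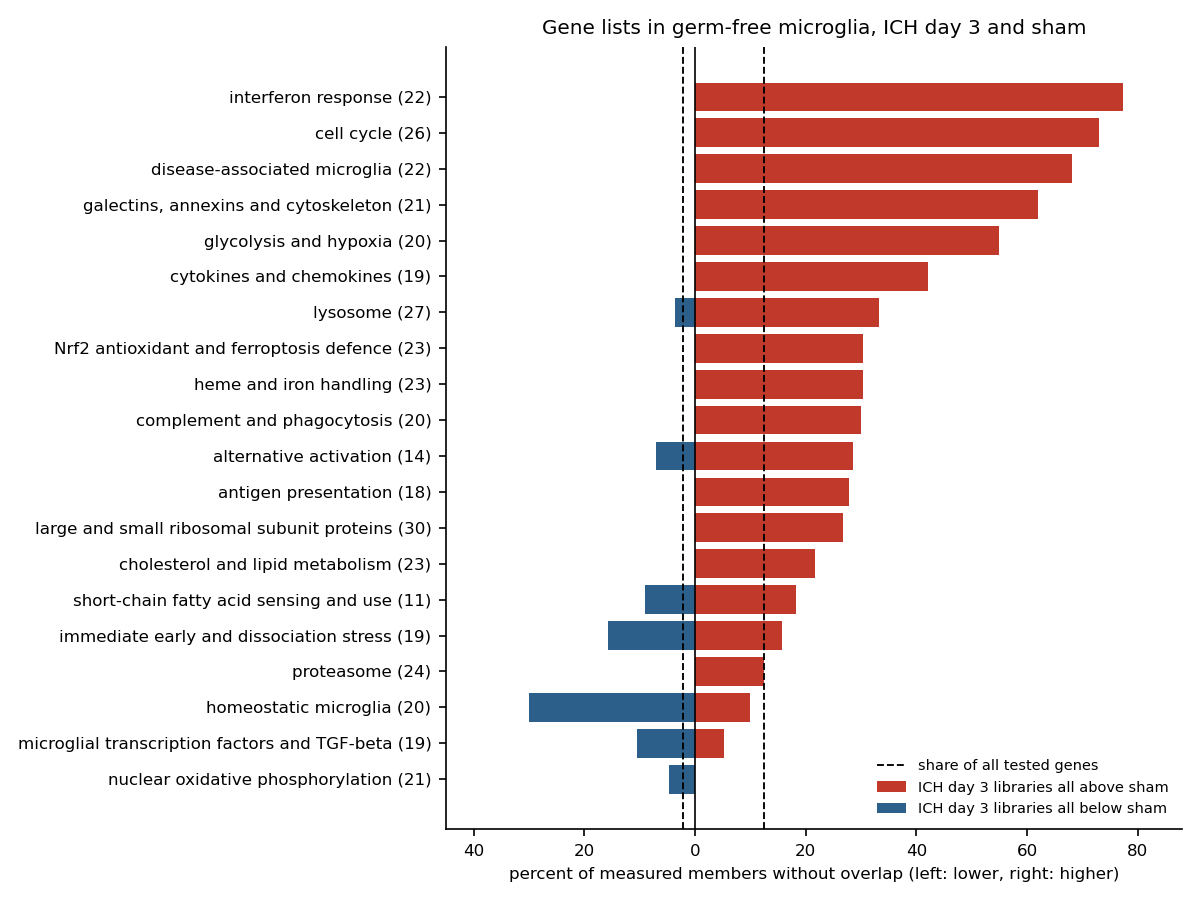
Percent of the measured members of each of 20 gene lists that were higher (right) or lower (left) in all 3 GF ICH day 3 libraries than in all 3 GF sham libraries. Dashed lines mark the same shares of all tested genes, 12.4% higher and 2.13% lower, and the cell cycle, interferon and disease-associated lists reach furthest to the right.

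Genes of surveying microglia were lower in part, with no call by edgeR. Of 20 measured members 6 were lower without overlap, against 2.13% of all tested genes, and 2 were higher. Since 19 of the 20 are abundant genes, the nearer background is the 7.71% of abundant genes that were lower. Scaling by DESeq2 size factors gave 8 lower and 0 higher, where 14.9% of abundant genes and 3.6% of all tested genes were lower. The median log2 fold change was -0.81, against -0.40 over abundant genes in the same fit. In the abundant-gene fit 0 of 19 fell, against 0.191% of its 1570 genes. P2ry12, the purinergic receptor that guides microglial processes, had 3677, 2700 and 2299 CPM in GF ICH day 3, against 4874, 4612 and 6403 CPM in GF sham. All ICH libraries were below all sham libraries, but the difference of -1.31 ± 0.36 did not pass (edgeR adjusted p = 0.57), and it was a DESeq2 call (adjusted p = 0.0343). Tmem119, a membrane protein of microglia, had 3853, 1023 and 3565 CPM in GF ICH day 3, against 4929, 4910 and 8090 CPM in GF sham, and did not pass in edgeR (adjusted p = 0.797) or DESeq2 (adjusted p = 0.304). Cst3, the protease inhibitor cystatin C, had 22280, 12200 and 16580 CPM in GF ICH day 3, against 23490, 30790 and 36820 CPM in GF sham. It missed the threshold over all genes (edgeR adjusted p = 0.192) and among abundant genes (adjusted p = 0.0762), and was a DESeq2 call (adjusted p = 0.0111). Cx3cr1, the fractalkine receptor, overlapped, with 5472, 4062 and 4649 CPM in GF ICH day 3 and 6651, 8112 and 5242 CPM in GF sham. Csf1r, the growth factor receptor that microglia need, overlapped as well, with 2566, 2094 and 3103 CPM in GF ICH day 3 and 8414, 5354 and 3087 CPM in GF sham. Fcrls and Olfml3, other genes of surveying microglia, were the 2 higher members, and under DESeq2 size factors neither was higher without overlap.

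The 3 genes that fell in the abundant-gene fit were March1, Serinc3 and Selenop. March1, a ubiquitin ligase that removes class II molecules from the cell surface (chromosome 8, 65617900 to 66471637), had 71.2, 88.2 and 61 CPM in GF ICH day 3, against 832, 394 and 123 CPM in GF sham. The ICH values lay close together and the shams were spread, lowest in replicate 3. March1 fell, with a log2 fold change of -2.75 ± 0.61 (abundant-gene fit, edgeR adjusted p = 0.0221), and the log2 fold change was -1.84 without GF sham replicate 1 and -0.76 with replicate 3 as the only GF sham. Serinc3, a membrane protein that can restrict retroviruses, had 3564, 2320 and 2316 CPM in GF ICH day 3, against 7605, 6208 and 4339 CPM in GF sham, and fell, with -1.23 ± 0.29 (abundant-gene fit, edgeR adjusted p = 0.0301). Selenop, the selenium carrier selenoprotein P, had 1425, 1463 and 1341 CPM in GF ICH day 3, against 3452, 2191 and 2208 CPM in GF sham, and fell, with -0.99 ± 0.25 (abundant-gene fit, edgeR adjusted p = 0.0445). For all 3 genes the calls held in 2 of 6 fits with a library left out, and DESeq2 called all 3. Of the list of microglial transcription factors and TGF-beta signalling genes, 2 of 19 were lower without overlap, Irf8 and Nrros, and 1 was higher, against 2.13% and 12.4% of all tested genes. Irf8, a factor of microglial identity, had 766, 462 and 848 CPM in GF ICH day 3, against 1570, 876 and 962 CPM in GF sham, and did not pass (edgeR adjusted p = 0.797). Jun, Junb and Jund, immediate early genes that cell isolation can induce, were also lower without overlap, and their part in these results was not tested. Jun had 837, 303 and 1042 CPM in GF ICH day 3, against 2350, 2719 and 1344 CPM in GF sham. The list of immediate early genes had 3 of 19 lower and 3 higher, against the same shares.

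Short-chain fatty acid genes gave few calls. Ffar2 and Ffar3, the receptors for acetate, propionate and butyrate, had 0 counts in all 6 libraries. Hcar2, a receptor for butyrate and ketone bodies, had 57.2, 171 and 100.5 CPM in GF ICH day 3, against 0.292, 0.384 and 10 CPM in GF sham. It was a DESeq2 call (adjusted p = 0.0191) but not an edgeR call (adjusted p = 0.797). Slc16a1, a monocarboxylate transporter, had 11.1, 13.2 and 14.1 CPM in GF ICH day 3, against 286, 20.1 and 19.1 CPM in GF sham, with sham replicate 1 far above the rest, and was a DESeq2 call as lower (adjusted p = 0.00369). Over the list, 2 of 11 were higher and 1 lower without overlap, against 12.4% and 2.13% of all tested genes, the shares that apply to each count here. Antioxidant genes driven by Nrf2 were higher in 7 of 23. The median log2 fold change of these 23 was 0.27, against 0.23 over all tested genes, and 13 were positive. Among the 7 was Srxn1, which repairs peroxiredoxins. Srxn1 had 41.6, 92.7 and 27.7 CPM in GF ICH day 3, against 0.521, 0.096 and 2.35 CPM in GF sham. Cholesterol and lipid genes were higher in 5 of 23. With DESeq2 size factors this was 3 of 23, near the 10.1% of all tested genes. Plin2, a lipid droplet coat protein, had 373, 749.6 and 559 CPM in GF ICH day 3, against 10.7, 3.12 and 60.7 CPM in GF sham, and was a DESeq2 call (adjusted p = 0.0278). Nuclear genes of oxidative phosphorylation had 0 of 21 higher and 1 lower, ribosomal proteins 8 of 30 higher, proteasome subunits 3 of 24, which is near the background, and complement and phagocytosis genes 6 of 20. With DESeq2 size factors the ribosomal proteins had 4 higher and 2 lower, and the complement and phagocytosis genes 3 higher and 0 lower. For all tested genes these shares were 10.1% and 3.6%. The complement and phagocytosis list had a median log2 fold change of -0.26, against 0.23 over all tested genes and -0.40 over abundant genes. Only 6 of its 20 members were positive. No direction is given for either list.

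Markers of other cells are given because they can move with the results. In bulk RNA fewer cells of a type and less RNA per cell cannot be told apart. Monocyte markers were higher without overlap in 7 of 11, where 12.4% of all tested genes were higher and 2.13% lower, the shares that apply to each marker count here. Their summed level was 64.8, 383 and 260.1 CPM in GF ICH day 3, against 319, 63.1 and 43.9 CPM in GF sham, and the sham 1 value is nearly all F13a1. Ccr2, the receptor of inflammatory monocytes, had 1.6, 45 and 27.3 CPM in GF ICH day 3, against 0.709, 0.648 and 0.711 CPM in GF sham, and Ly6c2 had 3.91, 29.5 and 5.81 CPM in GF ICH day 3, against 0.104, 2.42 and 2.09 CPM in GF sham. ICH replicate 1 was the lowest of its group for the monocyte sum, as it was for Spp1, Lgals3 and the class II genes. The part of these cells in those values was not tested. Markers of border-associated macrophages were higher in 5 of 10, with sums of 46.7, 186 and 131 CPM in GF ICH day 3 and 319, 14 and 14.6 CPM in GF sham. Neutrophil markers were higher in 2 of 10, with sums of 172, 229 and 408 CPM in GF ICH day 3 and 463, 279.9 and 241 CPM in GF sham, while Elane had 0 counts in all 6 libraries and Ly6g had 4 counts in ICH replicate 3. Mmp9, a protease of neutrophils, had 12.2, 25.6 and 23.7 CPM in GF ICH day 3, against 0, 0 and 0 CPM in GF sham, at least 347.8-fold higher against a floor of 3 counts per library, and was a DESeq2 call (adjusted p = 0.00155) but not an edgeR call (adjusted p = 0.797). The choroid plexus gene Ttr, a thyroid hormone carrier, had 2755, 1926 and 671 CPM in GF ICH day 3 and 826, 1874 and 19760 CPM in GF sham, and sham replicate 3 stood far above the rest. The 6 choroid plexus markers summed to 3328, 2809 and 825 CPM in GF ICH day 3 and 1218, 2741 and 24440 CPM in GF sham, and 1 was lower and 0 were higher without overlap. Hemoglobin and other erythroid markers summed to 698, 756 and 191 CPM in GF ICH day 3 and 1392, 483 and 449.7 CPM in GF sham, with no member higher or lower without overlap. T and NK cell markers were higher in 2 of 9 and B cell markers in 0 of 4, and Cd4, Gzmb and Pax5 had 0 counts in all 6 libraries. Astrocyte markers were higher in 2 of 8, oligodendrocyte markers in 1 of 8, neuronal markers in 2 of 5 and endothelial and mural markers in 1 of 8. The counts of 1 of 8 are near the background.

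**Figure D4:**
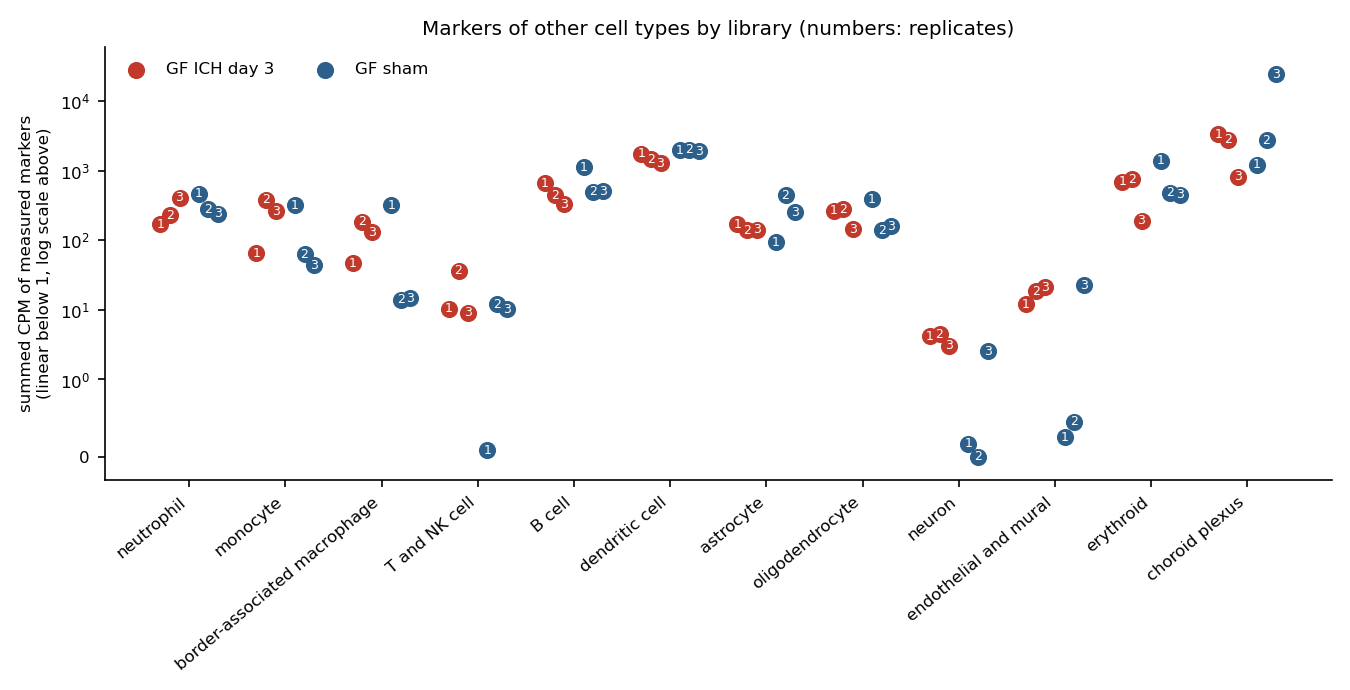
Summed CPM of the measured markers of 12 other cell types in each library (y axis, linear near 0 and logarithmic above), with GF ICH day 3 left of GF sham and points marked by replicate number. Monocyte sums were 64.8 to 383 CPM in ICH, and the choroid plexus sum of sham replicate 3 was 24440 CPM.

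The response was set beside that of SPF and ABX mice. The SPF and ABX comparisons share no library with the GF comparison, but the tests of the difference share the GF libraries. Of the 24 genes called in GF mice, all 21 higher genes had a positive and all 3 lower genes a negative log2 fold change in SPF and in ABX mice. A gene near 0 in shams can reach the mean of 100 CPM through the ICH libraries of SPF and ABX mice, so the filter fixes this direction in part. Of the 729 abundant genes with a positive value in GF mice, 68.9% were positive in SPF mice and 63.8% in ABX mice. In the fit over all genes 11 of the 24 passed in SPF mice and 12 in ABX mice. Of all genes 0.091% were called higher and 0.0114% lower in SPF mice, and 0.102% higher and 0.0228% lower in ABX mice. The 24 come from the abundant genes, and SPF and ABX libraries entered their filter and spread. These counts are therefore not an independent repeat of the GF calls. The difference in response, GF minus SPF, was called by edgeR for 0 genes, with 999 (5.68%) at an unadjusted p under 0.05. DESeq2 called it for 338 higher (1.93%) and 179 lower (1.02%), and limma voom for 0. GF minus ABX was called by edgeR for 0 genes, with 1144 (6.51%) at an unadjusted p under 0.05. DESeq2 called 458 higher (2.74%) and 245 lower (1.47%), and limma voom 3 higher (0.0171%) and 1 lower (0.00569%). Of the 21 higher genes, the difference was negative for 17 against SPF and 16 against ABX. Over the 1570 abundant genes it was negative for 70.1% against SPF and 67.3% against ABX. The nearer background is the 729 abundant genes positive in GF mice, where it was negative for 51.2% against SPF and 48.0% against ABX. The filter can admit a gene through high SPF and ABX ICH libraries, which would also make this difference negative. These counts are therefore not independent of the filter, and no weaker GF response is read from them. DESeq2 called 0 of the 24 in either test. A difference that does not pass does not show equal responses.

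Apoe was high in GF shams. Beside the GF values above it had 6133, 8332 and 8434 CPM in SPF ICH day 3, against 532, 757 and 259 CPM in SPF sham. ABX mice had 7939, 5571 and 12310 CPM in ABX ICH day 3, against 412, 529 and 579.5 CPM in ABX sham. The 3 GF sham libraries were above all SPF and ABX sham libraries, while ICH libraries of the 3 conditions overlapped. The response of Apoe was lower in GF than in SPF mice by a log2 difference of -3.23 ± 0.67 (edgeR adjusted p = 0.841). DESeq2 called this difference (adjusted p = 0.00713). GF minus ABX was -3.42 ± 0.67 (edgeR adjusted p = 0.608, DESeq2 adjusted p = 0.00221). Stmn1 had 721, 543 and 699 CPM in SPF ICH day 3, against 71.7, 68.7 and 172 CPM in SPF sham. In ABX mice it had 424, 832 and 979 CPM in ABX ICH day 3, against 53.7, 86.1 and 87.5 CPM in ABX sham. GF ICH libraries were below all SPF and ABX ICH libraries for Stmn1. Its GF minus SPF difference was -2.15 ± 0.70 (edgeR adjusted p = 0.841, DESeq2 adjusted p = 0.0198). For Spp1 the GF minus SPF difference was -0.28 ± 0.77 (edgeR adjusted p = 1).

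**Figure D5:**
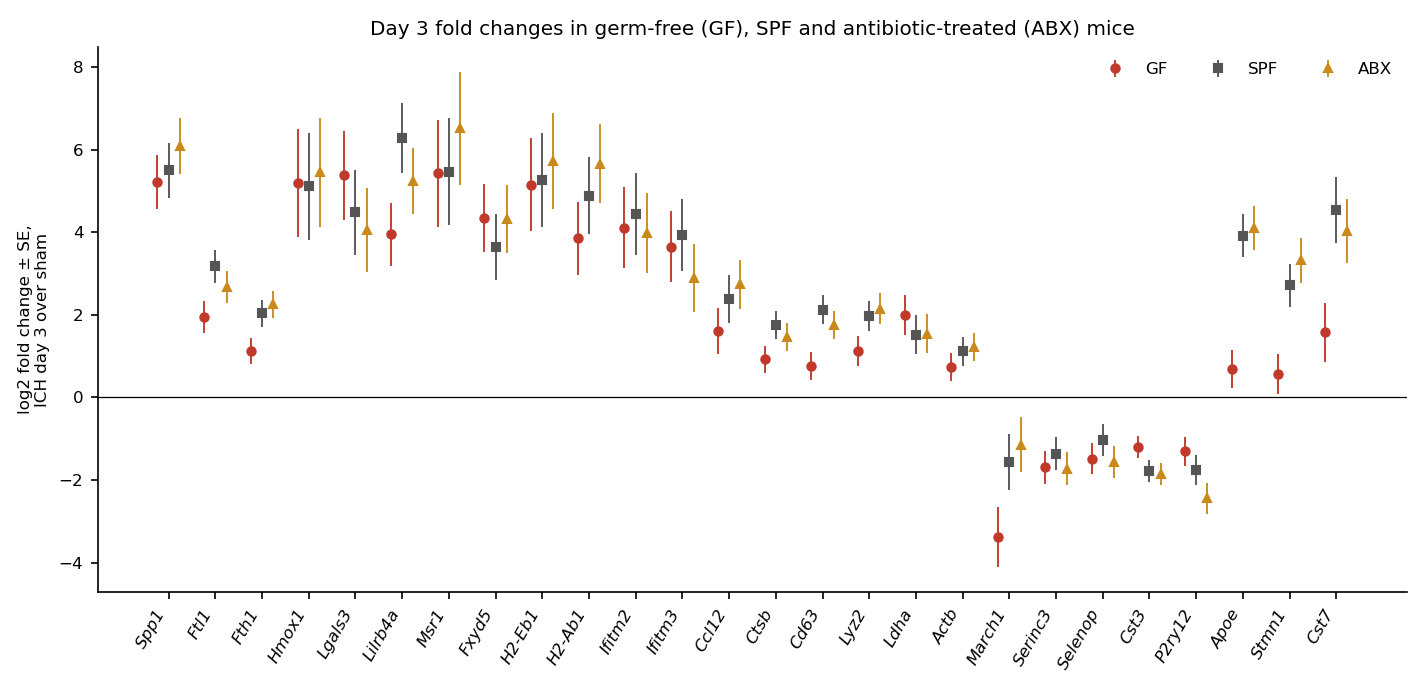
Log2 fold change of ICH day 3 over sham (y axis) with its SE in GF, SPF and ABX mice, from the edgeR fit over all genes, for 26 genes (x axis). Points of the 3 conditions lie on the same side of 0 for each of the 21 called genes plotted, which leave out Ftl1-ps1, Ftl2-ps and Gm47428, and the GF point of Apoe, at 0.69, lies below the SPF and ABX points, at 3.92 and 4.11.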

How the data were processed

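RNA was from sorted microglia, made into low-input SMART-Seq v4 libraries and sequenced in paired reads of 150 bases, per the labels' protocols. The authors deposited 1 table of raw counts per gene for 56691 Ensembl gene identifiers in 27 libraries. HISAT2 2.0.4, StringTie 1.3.4d, cutadapt 1.9 and edgeR are named in the submitters' processing notes. How reads were assigned to genes, whether by strand, and the annotation release are not given in the sources used here. Copies of a gene can share reads, and antisense partners cannot be told apart. Symbols and GRCm38 positions came from GENCODE M21, which matched 52073 identifiers.

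Counts were tested with edgeR 4.0.16 in R 4.3.3 (quasi-likelihood F test, robust, TMM scaling, filterByExpr), with 27 libraries in 9 groups sharing 1 estimate of the spread and Benjamini-Hochberg adjustment at 0.05 over the 17573 genes kept, which hold 99.9% of counts. The common biological coefficient of variation was 1.54. Alternatives were DESeq2 1.42.0, limma 3.58.1 voom, other scalings and filters, GC offsets, a replicate block and libraries left out. Levels are CPM of the library total, because TMM factors were 0.517 in GF sham replicate 1 and 1.03 to 1.18 in the other 5 libraries. Fold changes with SE are from the fits. Groups are said not to overlap when all 3 libraries of one lie above all 3 of the other. Only the edgeR fit over all genes was also run on simulated data. The abundant-gene fit, DESeq2 and limma voom were not.

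Genes were named by a rule: the largest called changes, the 4 lowest adjusted p-values within a list, and a fixed set. Genes outside it, such as C1qb, Ifit1, Top2a, Stmn1 and Jun, and other members given as examples, were named after their values were seen. The members and lists were chosen with earlier results of these data known, so list counts are descriptions. The fit on abundant genes was one of the alternatives. Its use to name genes, and its own alternatives, were chosen after the values were seen.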

Additional observations from a re-analysis of the deposited data

How the results depend on the processing

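The 1 higher gene over all genes became 379 with DESeq2, 2 with GC offsets, 21 among genes of at least 100 CPM, and 0 with limma voom or with the 6 libraries fitted alone. Leaving out 1 library gave 1 to 41, the 41 without GF sham replicate 3. The 0 lower genes became 404 with DESeq2, 3 among genes of at least 100 CPM, and 0 to 10 with a library left out, the 10 again without GF sham replicate 3. The 21 higher abundant genes became 36 with DESeq2, 13 with the TMM factors of all genes, 5 with limma voom, 0 with the 6 libraries fitted alone, 9 without the libraries under 12000 detected genes, and 9 to 63 with 1 library left out, the 63 without GF sham replicate 3. Without GF ICH day 3 replicate 2 there were 9, without its replicate 3 there were 12, without GF sham replicate 1 there were 10 and without its replicate 2 there were 11. The 3 lower abundant genes became 21 with DESeq2, 1 with GC offsets, 0 with limma voom, with the 6 libraries alone or without the libraries under 12000 detected genes, and 0 to 22 with 1 library left out, the 22 without GF sham replicate 3. The GF minus SPF difference, 0 in each direction, became 338 higher and 179 lower with DESeq2 and up to 13 higher with a library left out. GF minus ABX, 0 in each direction, became 458 higher and 245 lower with DESeq2, 3 higher and 1 lower with limma voom, and up to 12 higher and 1 lower with a library left out. The cause of these shifts was not tested. Without GF sham replicate 3 the median log2 fold change of all genes moved to 1.33, against 0.23 with all libraries and 0.10 with DESeq2 size factors. Of 166 named genes, 37 changed sign in at least 1 setting.

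The labels do not state whether the replicate numbers pair the libraries. Deviations from the group means of same-numbered ICH and sham libraries correlated at -0.0016, 0.036 and -0.079. Those of differently numbered libraries correlated at -0.063 to 0.087. With 3 libraries a side these values cannot decide whether there is a pairing. With the replicate number as a block, 1 gene was higher and 0 lower over all genes, and 16 were higher and 3 lower among abundant genes. Both differences between conditions stayed at 0 with the block.

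Each library holds at least 41664864 counts. The day of the shams differs from that of the ICH libraries and cannot be told apart from the injury.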
